A study of Drosophila melanogaster with 3 samples.

Results

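The far intergenic binding sites of CG30403 are the summits of its reproducible peaks that lie outside every annotated gene and over 5000 bp from any protein-coding transcription start site (TSS). They were chosen by position alone, and 527 of the 7827 summits (6.73%) on build dm6 met the rule. CG30403 is an uncharacterised protein of Drosophila melanogaster. Its binding was mapped by ChIP-seq in 1 group of 3 biological replicates. Each replicate was made of whole embryos aged 0 to 24 hours, both sexes pooled, from a transgenic line that stably carries CG30403 with GFP fused to its C terminus. All 3 came from the same line. The antibody was directed against the GFP tag, and all embryonic cell types were mixed together. The deposited files hold 1 ranked list of regions per replicate, 1 from the pooled replicates, and the reproducible ("optimal") peaks described here. The signal value of a region is the authors' score and was used only for ranks within a list. No read counts come with the regions, so depth is unknown. Intervals given below cover the counting of peaks only.

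Sites far from promoters in the fly genome are commonly enhancers, which raise transcription of a gene at a distance when transcription factors bind them. Other such sites are insulators, which divide the chromosome into domains, or elements bound by Polycomb group proteins, which keep developmental genes silent. Genes that pattern the embryo are often flanked by long gene-free stretches that hold many enhancers. Binding alone does not show which of these roles a site has, nor which gene it acts on, and the nearest gene is given below only as an address.

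The sequences under 5 of the 6 strongest far intergenic summits are shown because a short trough of low GC content at the summit is the feature most members share. The strongest of the 6 is described below without its sequence. Each line gives the forward strand of the Release 6 assembly, 5′ to 3′, from 50 bases before to 50 bases after the summit, named by the nearest protein-coding gene. Capitals mark runs of 8 or more bases made only of A and T.
chinmo, chr2L:1638753-1638853: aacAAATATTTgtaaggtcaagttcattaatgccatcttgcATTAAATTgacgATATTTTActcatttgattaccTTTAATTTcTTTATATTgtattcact
eEF1gamma, chr3R:29214401-29214501: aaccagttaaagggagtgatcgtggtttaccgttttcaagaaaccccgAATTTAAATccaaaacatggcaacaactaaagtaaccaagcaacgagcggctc
CG43245, chr3L:10752726-10752826: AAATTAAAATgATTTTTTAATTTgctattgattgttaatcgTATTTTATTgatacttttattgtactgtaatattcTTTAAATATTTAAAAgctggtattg
chinmo, chr2L:1643381-1643481: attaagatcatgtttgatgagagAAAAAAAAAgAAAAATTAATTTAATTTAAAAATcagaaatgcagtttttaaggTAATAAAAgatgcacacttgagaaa
CG9300, chr3L:19560750-19560850: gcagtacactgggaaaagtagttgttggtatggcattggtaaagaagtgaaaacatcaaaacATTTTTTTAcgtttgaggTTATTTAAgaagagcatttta
The 5 windows hold 17.8% to 42.6% G and C. The second of them is the exception, with 42.6% at the summit against 28.4% in its flanks. The longest run of A and T in the fourth is 23 bases. Runs of 8 are common. The median longest run was 10 bases in members and 8 in windows laid over the sequence that meets the rule.

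A further set is shown because its members share a 7-base word, CAGTGCA, and the long gene-free gap between NijA and CG43245 on 3L. Capitals mark the word, which lies in the same orientation in all 3.
CG43245, chr3L:10739989-10740089: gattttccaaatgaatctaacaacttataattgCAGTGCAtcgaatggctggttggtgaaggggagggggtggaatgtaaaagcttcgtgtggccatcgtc
CG43245, chr3L:10738972-10739072: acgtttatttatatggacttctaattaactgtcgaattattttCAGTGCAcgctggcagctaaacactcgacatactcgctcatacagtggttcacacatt
CG43245, chr3L:10735268-10735368: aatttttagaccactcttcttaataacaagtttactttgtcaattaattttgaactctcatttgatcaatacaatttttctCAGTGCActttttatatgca
They are ranked 309, 2293 and 3474 among all optimal peaks. No other gap held the word in more than 1 member, and 29 gaps held it at all.

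The strongest far intergenic peak, chr2R:13035069-13035612, had a signal value of 3072 and was ranked 18th among all optimal peaks. It was ranked 17, 19 and 16 in replicates 1, 2 and 3. G and C made up 27.7% of the bases around its summit, against 56.9% in its flanks. It lay in a gene-free gap of 36783 bp, 11894 bp from the nearest TSS, that of the uncharacterised gene CG13323. The gene on the other side of the gap is Su(z)2, a relative of the Polycomb group gene Psc. The second, chr2L:1638477-1639079, had a signal value of 2910 and ranks of 13, 20 and 32. It lay 12455 bp upstream of chinmo, which encodes a BTB zinc finger protein that sets temporal identity in neurons. Its gap held 6 members in all, and 2 more of the 12 strongest, ranked 167 and 390, were also nearest to chinmo. The 3 sites lay 7827 to 18431 bp from the chinmo TSS and were in the top list of every replicate.

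The strongest peak on 3R, chr3R:29214186-29214650, was nearest to the protein-coding gene eEF1gamma, a subunit of a translation elongation factor, 5721 bp away. It lay, however, 111 bp from the start of the noncoding gene lncRNA:CR31044, so that it is far from a coding promoter and not from every annotated start. Its ranks were 92, 71 and 73 in replicates 1, 2 and 3. The strongest on 3L, chr3L:10752478-10753038, was ranked 70, 125 and 148 and lay 19149 bp upstream of CG43245. The other members among the 12 strongest were nearest to CG9300, CG43245, CG13898, noc, CG13896 and CG10651, at ranks 225 to 462 of the optimal list. The gene noc encodes a zinc finger protein of the embryonic head and imaginal discs. All 12 were in the top list of every replicate.

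The leading sites of chromosome 4 and X were weaker. The strongest on chromosome 4, 19086 bp downstream of the lgs start, had ranks of 1916, 620 and 646 in replicates 1, 2 and 3. The gene lgs encodes an adaptor of the Wingless pathway. The strongest on X, 5372 bp downstream of the rux start, had ranks of 1411, 1737 and 1496. The gene rux encodes an inhibitor of cyclin-dependent kinase.

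Most far intergenic peaks were weaker than that. Their median signal value was 200.7, against 249 for all other optimal peaks, and their median rank was 4916, against 3826. Only 26 were among the 1000 strongest optimal peaks and 3 among the 100 strongest. The far intergenic share of the optimal list was 3.12%, 6.18%, 7.97% and 9.66% in the 4 equal bins of rank, from the strongest to the weakest. The same was found in the lists of single replicates, classified by their own summits. In the 3000 strongest regions, far intergenic summits were 3.87%, 3.63% and 4.30% of replicates 1, 2 and 3. In the next 3000 they were 7.23%, 7.47% and 7.83%. Beyond a rank of 6000 the share was between 8.87% and 12.5% in every bin of 3000. At equal length, the 7827 strongest regions of each replicate (its top list) held 498, 517 and 514 far intergenic summits, or 6.51% ± 0.13 (SD, n = 3).

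**Figure D1:**
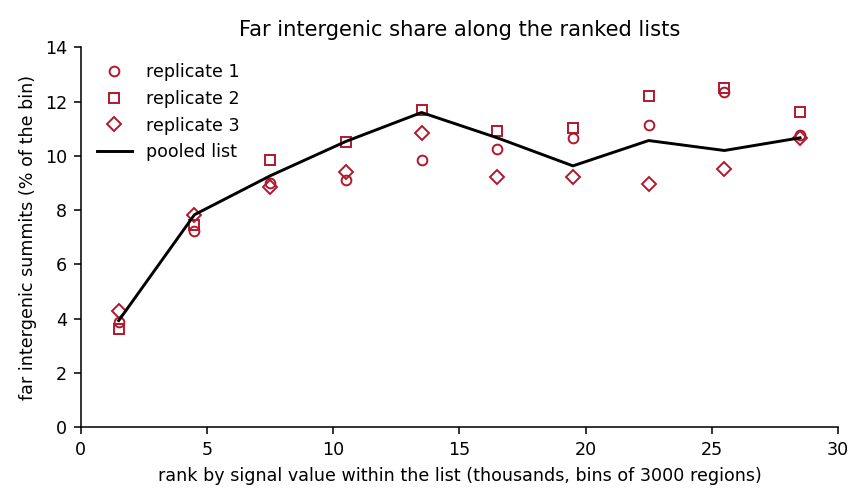
Share of far intergenic summits (y axis, % of the bin) along each list ranked by signal value (x axis, rank in units of 1000, bins of 3000 regions), with open symbols for the 3 replicates and a line for the pooled list. The pooled share was 3.93% in the strongest bin and 11.6% in the fifth.

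The same measure was compared with that of 2 other groups of sites within each replicate. Near intergenic summits lie outside genes, over 500 bp and at most 5000 bp from a protein-coding TSS, and deep intronic summits lie in introns over 10000 bp from one. The median far intergenic summit stood at percentile 62.8, 65.8 and 59.9 of the top lists of replicates 1, 2 and 3, counted from the strongest, against 55.5, 53.5 and 53.8 for near intergenic summits. Far intergenic sites were thus weaker than near intergenic ones in 3 of 3 replicates, by 8.56 percentile points ± 3.29 (SD). The exact two-sided permutation test gave p = 0.25, the smallest value that 3 pairs allow. Deep intronic summits stood at 61.3, 64.96 and 62.7. The difference from them, -0.16 points ± 2.36, was within the spread between replicates (exact p = 1).

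Of the 527 far intergenic peaks, 340 (64.5%, exact 95% interval 60.3% to 68.6%) were overlapped by a region in the top list of every replicate. The share over all optimal peaks was 74.0%. Optimal peaks are the reproducible peaks of these same replicates, so their overlap with the replicate lists is not an independent check. A further 136 were in the top lists of 2 replicates, 50 in 1 and 1 in none. The share followed the signal. It was 100% (61 of 61), 97.5%, 75% and 23.3% in the 4 equal rank bins, from the strongest to the weakest, against 99.4%, 95.7%, 72.8% and 28.0% for all optimal peaks of the same bin. By replicate, 75.3%, 88.6% and 90.7% of the far intergenic peaks were found in the top lists of replicates 1, 2 and 3, against 79.8%, 91.5% and 89.3% of the near intergenic and 75%, 91.2% and 88.1% of the deep intronic ones. Replicate 1 held the fewest in each class. The differences, -1.99 points ± 3.06 from near intergenic and 0.113 ± 2.56 from deep intronic, were within the spread (exact p = 0.5 and 0.75). In the full replicate lists, which run far into weak regions, 518 members (98.3%) had an overlapping region in all 3, against 98.2% of all optimal peaks.

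The sequence that meets the rule, called eligible here, comes to 24.0 Mb of the 6 arms. Far intergenic summits occurred in it at 21.96 per Mb (exact Poisson 95% interval 20.1 to 23.9). The top lists of replicates 1, 2 and 3 gave 20.8, 21.5 and 21.4 per Mb. Near intergenic summits stood at 48.6 per Mb of their own sequence and deep intronic ones at 23.0, while the whole optimal list gave 58.6 per Mb of the arms. The intervals of the far intergenic and deep intronic densities overlapped (20.1 to 23.9 and 21.0 to 25.2).

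Density was lowest far from genes. In the optimal list it was 33.7 per Mb between 5 and 10 kb from the nearest protein-coding TSS (241 summits), 30.1 between 10 and 20 kb (201), 17.3 between 20 and 40 kb (71) and 2.30 beyond 40 kb (14). The top lists of replicates 1, 2 and 3 gave 31.2, 30.8 and 33.0 per Mb between 5 and 10 kb, and 30.1, 31.3 and 30.3 between 10 and 20 kb. These 2 bins did not differ clearly, since their intervals overlapped (29.6 to 38.2 and 26.1 to 34.6) and replicate 2 had the higher value in the second. The replicates gave 16.1, 18.05 and 16.1 per Mb between 20 and 40 kb and 1.32, 2.30 and 1.65 beyond 40 kb. Of the 14 farthest summits 35.7% were in the top list of every replicate, against 65.6% of those between 5 and 10 kb. The median member lay 10.5 kb from a TSS, with quartiles of 7.48 and 16.1 kb. Members lay upstream of the nearest TSS in 272 cases and downstream in 255.

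**Figure D2:**
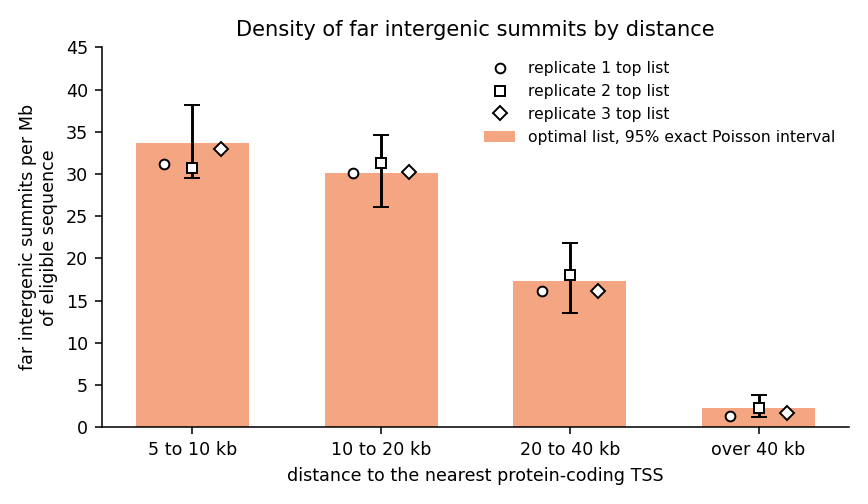
Far intergenic summits per Mb of eligible sequence (y axis) by distance to the nearest protein-coding TSS (x axis), with bars for the optimal list, error bars for exact Poisson 95% intervals and symbols for the top list of each replicate. The bars stand at 33.7, 30.1, 17.3 and 2.30, and the symbols of the 3 replicates lie within the error bars of their bin.

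The 5 farthest summits lay in 2 gaps. In the gap next to hth on 3R, which encodes a homeodomain partner of the Hox proteins, 3 summits lay 59562, 63956 and 72248 bp from the nearest TSS, that of Cyp12e1. They were ranked 2973, 6070 and 6677. In the gap next to vvl on 3L, 2 lay 60292 and 52581 bp from Prat2, an enzyme of purine synthesis, at ranks 3729 and 6200.

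At the threshold of 5000 bp, the members just inside were chr3L:10795933-10796416, 5015 bp from CG12523 at rank 5116, and chr2L:14554028-14554160, 5025 bp from CG4218 at rank 2472. The summits just outside lay 4974 bp from exex at rank 6975 and 4960 bp from CG12290 at rank 3543.

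The arms differed. Arms 2L and 3L held 118 and 175 members, at 27.6 and 27.3 per Mb of eligible sequence, and 3R held 107, at 23.3. Arm 2R held 64, at 12.3 per Mb (interval 9.48 to 15.7), and X held 60, at 17.7 (13.5 to 22.8). Chromosome 4 held 3. In each replicate 2R and X were below 2L, 3L and 3R. The top lists of replicates 1, 2 and 3 gave 9.999, 11.7 and 11.9 per Mb on 2R, against 30.3, 28.6 and 27.0 on 3L. Arm 2R was also low for deep intronic summits, at 16.0 per Mb, and for all optimal peaks, at 54.1. For near intergenic summits it stood at 41.7, close to 3R at 42.3, and was above 3R in replicate 2 (42.6 against 40.8). X was not low in these classes. It held 46.7 near intergenic and 31.2 deep intronic summits per Mb, and 64.9 optimal peaks in all, against 58.6 over all arms. No test of these arm differences between classes was made.

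Density was also low in repeat-rich sequence. In megabases where annotated transposable elements cover over 20% of the bases there were 5 members in 2.92 Mb of eligible sequence, or 1.71 per Mb, against 522 members and 24.8 per Mb elsewhere. The whole optimal list gave 15.6 and 61.4 per Mb in the same 2 kinds of megabase. Transposable elements held 3 of the summits (0.569%) and cover 13.1% of the eligible bases. Over the whole optimal list, 0.307% of summits lay in such elements. The 3 were ranked 4155, 7078 and 7509 and lay nearest to CG14662, lgs and CG17571. In the replicates 0.522% ± 0.222 of far intergenic summits lay in transposable elements, against 0.521% ± 0.0938 of near intergenic ones (exact p = 1). How reads from repeated sequence were handled is not given in the sources used here, and its part in these values was not tested.

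Far intergenic summits were sparse along the chromosomes. The next optimal peak was over 10 kb away for 128 members (24.3%), against 17.5% of all optimal peaks, 20.8% of near intergenic and 28.9% of deep intronic ones. They fell into 298 gene-free gaps, of which 186 held 1 member each and 12 held 5 or more, with 84 members in these. Several summits can belong to 1 stretch of binding: 63 members overlapped another optimal peak, and the 527 came from 497 merged regions.

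The gap with the most members lay on 3L between vvl, a POU homeodomain factor of tracheal and neural development, and lncRNA:CR45115. It held 10 summits in 70507 bp. The strongest, chr3L:6823785-6824145, was ranked 1158, 1472 and 1612 in replicates 1, 2 and 3, and the weakest stood at rank 7615 of the optimal list. Of the 10, a pair of summits 7457 and 7656 bp from the vvl start, and another pair 17469 and 17669 bp from it, belong to overlapping peaks. Replicates 2 and 3 had all 10 in their top lists, and replicate 1 had 8. The shorter gap between tRNA:Ile-TAT-1-2 and CG13898 held 9 in 32964 bp, led by a summit with ranks of 460, 420 and 443. Here 6, 8 and 9 were in the top lists of replicates 1, 2 and 3.

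The gap between NijA and CG43245, the longest of the 5 at 75047 bp, held 8. NijA encodes Ninjurin A, a cell surface protein. All 8 lay between 11362 and 36607 bp upstream of CG43245, on its side of the gap. The most tightly filled of the 5 gaps, between lncRNA:CR44363 and CG7560, held 8 summits in 19063 bp (4.20 per 10 kb), and all 8 were in the top list of every replicate. The gap between lncRNA:CR44730 and lncRNA:CR44731 on 2L held 7 in 28701 bp, all 7 in every top list, of which 1 was nearest to noc and 6 to CG15283.

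**Figure D3:**
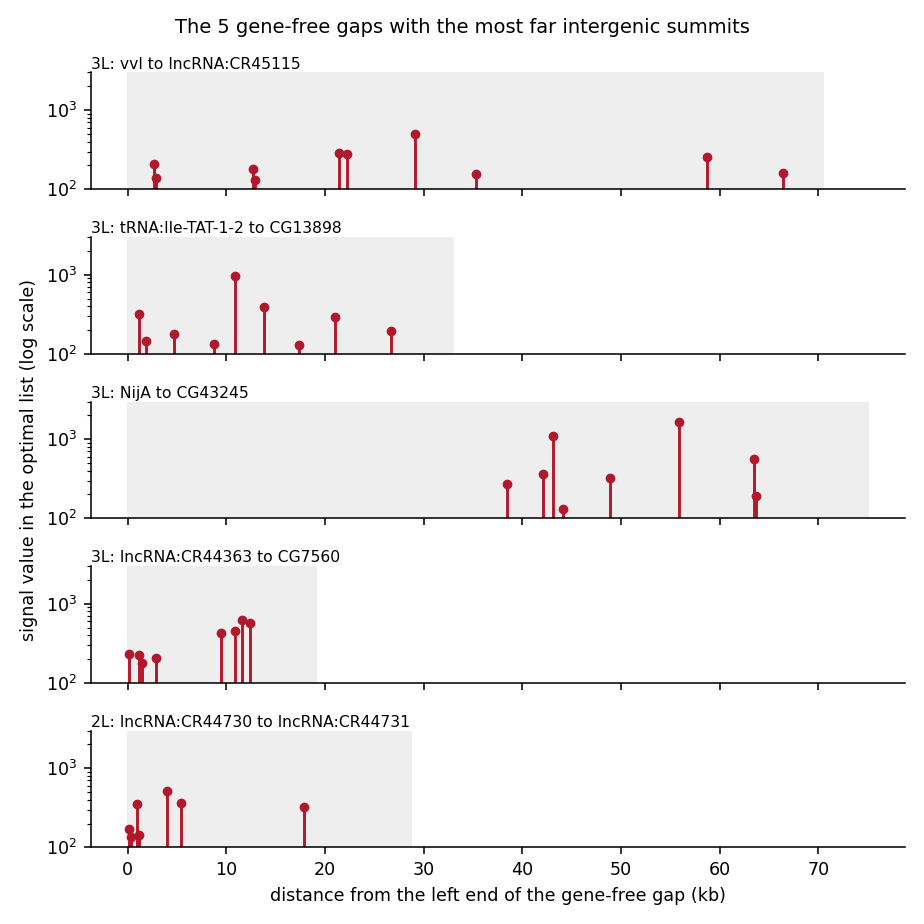
Signal value in the optimal list (y axis, log scale) of each far intergenic summit in the 5 gene-free gaps with the most members, by distance from the left end of the gap (x axis, kb). Grey marks the gap, which runs from 19063 to 75047 bp, and each stem is 1 summit; the 8 of NijA to CG43245 lie towards CG43245.

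The centre of the far intergenic sites was poor in G and C. The median GC content from 50 bases before to 50 bases after the summit was 30.7%, against 46.1% in flanks 200 to 250 bp to each side and 41.6% in windows of the same length laid end to end over the eligible sequence. Of those 236537 windows, 14.6% lay below the members' median. GC content was lower at the summit than in its own flanks in 464 members (88.0%), and in 77.7% of all optimal peaks. The median at the summit was 29.7%, 30.7%, 32.2% and 30.7% in the 4 equal rank bins of the optimal list, from the strongest to the weakest, so that it differed little with signal. A run of 12 or more bases of A and T occurred in 177 members (33.6%), against 19.5% of eligible windows and 35.9% of all optimal summits.

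Over replicates, median GC content at the summit was 31.7%, 30.7% and 31.7% for far intergenic sites, against 31.7%, 30.7% and 32.7% for near intergenic and 32.7%, 29.7% and 31.2% for deep intronic ones. These values overlapped, and the mean differences were -0.33 points ± 0.572 from near intergenic and 0.165 ± 1.03 from deep intronic sites (exact p = 1 for both). The flanks differed more. They held 45.1%, 45.1% and 46.1% G and C at far intergenic sites, against 43.1%, 43.1% and 44.1% at near intergenic ones, higher in 3 of 3 replicates by 1.96 points (exact p = 0.25). Deep intronic flanks held 44.1%, 45.1% and 44.1%, and the difference from them was 0.980 points ± 0.980, with far intergenic sites higher in 2 of 3 replicates (exact p = 0.5). The share of sites with a summit poorer in G and C than its flanks was 79.5%, 86.1% and 86.4% for far intergenic sites, against 72.9%, 76.7% and 74.2% for near intergenic sites. It was higher in 3 of 3 replicates by 9.38 points ± 2.78 (exact p = 0.25). Deep intronic sites, at 76.3%, 88.8% and 87.8%, did not differ from far intergenic ones beyond the spread (-0.312 ± 3.14, exact p = 1).

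**Figure D4:**
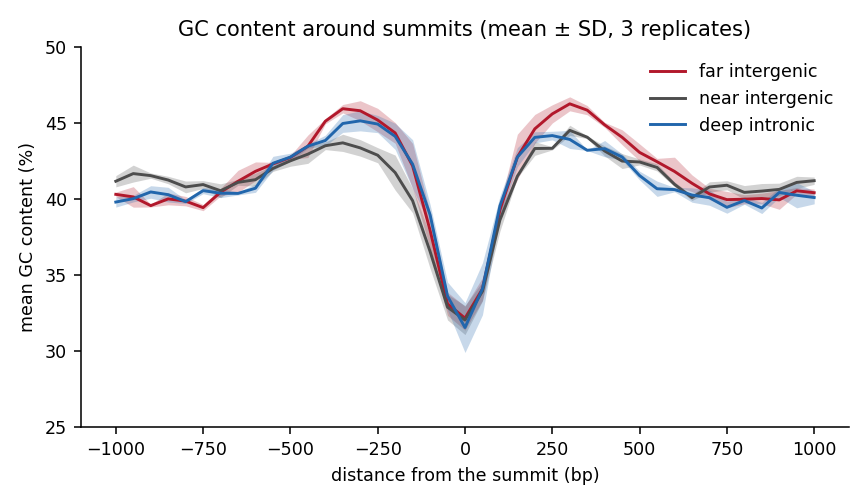
Mean GC content (y axis, %) in 50-bp steps around the summit (x axis, bp) for far intergenic, near intergenic and deep intronic summits in the top lists, with lines for the mean and shading for the SD over 3 replicates. All 3 classes fall to between 31.6% and 32.2% at the summit, and at +300 bp far intergenic sites reach 46.3%, against 44.5% for near intergenic and 43.9% for deep intronic sites. At -300 bp the values are 45.8%, 43.4% and 45.2%, so that deep intronic sites lie close to far intergenic ones on that side.

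The preset motifs were searched on both strands as exact words within 50 bp of the summit, and in the flanks. Of 35 words, 18 were more frequent at the summit than in the flanks. Summits held less G and C than flanks (medians 30.7% and 46.1%), and the part of base composition in the ratio of summits to flanks was not tested. The 6 words with the largest ratio, among those in at least 10 members, were as follows. TATATATA was found in 10 members and 1 flank, and TATAAA, the word of the TATA box of promoters, in 130 (24.7%) and 54. TTCNNNGAA, the word bound by Stat proteins, was found in 17 and 8, and CATATG, an E-box form, in 23 and 11. TGTTTA, a forkhead word, was found in 76 (14.4%) and 38, and GATAA, the word bound by GATA factors, in 130 and 66. Against eligible windows rather than flanks the surplus was smaller: GATAA stood in 18.1% of them, TGTTTA in 9.46%, TATAAA in 12.3%, CATATG in 2.75%, TTCNNNGAA in 3.00% and TATATATA in 1.29%. Over all optimal summits the shares were 24.7% for GATAA, 14.4% for TGTTTA and 23.4% for TATAAA, so that far intergenic sites stood close to the rest. CATATG stood in 3.63% of all optimal summits and 4.36% of members, and TATATATA in 1.89% and 1.90%. GATAA was found in 23.5% ± 0.339 of far intergenic summits over replicates, against 22.9% ± 0.962 of near intergenic ones (exact p = 0.5; 0.795 adjusted by the Benjamini-Hochberg method over the 35 words).

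Some words were rarer at far intergenic than at near intergenic summits in every replicate, by 1.5 times or more. TATCGATA, the word of the housekeeping promoter factor DREF, was found in 0 of 527 members, which allows a share of up to 0.569%. It stood in 0.129% ± 0.112 of far intergenic summits in the top lists, against 0.728% ± 0.325 of near intergenic ones, and in 2.21% of all optimal summits. AGGTGGCGC, the core of the site of the insulator protein CTCF, was found in 5 members (0.949%), in 2 flanks, in 0.652% of all optimal summits and in 0.0410% of eligible windows. It stood in 0.845% ± 0.395 of far intergenic summits in the replicates, against 1.62% ± 0.601 of near intergenic ones. ATGCAAAT, the octamer of POU factors, stood in 0.590% ± 0.343, against 2.13% ± 0.310. GGCGCC, a word of SMAD proteins, stood in 1.30% ± 0.954, against 2.81% ± 0.994. In the optimal list ATGCAAAT was found in 0.759% of members and 0.949% of flanks, and GGCGCC in 1.14% and 1.52%. Each of the 4 differences from near intergenic summits had the exact p = 0.25 that 3 pairs allow at best, or 0.729 after adjustment. Deep intronic summits gave another picture. They held TATCGATA in 0.0715% ± 0.124 and GGCGCC in 1.30% ± 0.549, and the far intergenic shares did not differ from these beyond the spread (exact p = 1 for both). They held AGGTGGCGC in 0.576% ± 0.322, and the far intergenic share was the higher in 3 of 3 replicates. They held ATGCAAAT in 1.45% ± 0.425, and the far intergenic share was the lower in 3 of 3 (exact p = 0.25 for both, 0.486 adjusted).

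Words of 7 bases were ranked on 2L and 3L, where 293 members lie, by their share of members against eligible windows, and then looked up on the other arms. CATACTA was 6.16 times as frequent in members on 2L and 3L, and 1.33 times on the other arms, where 234 members lie. For ATACTAC the ratios were 5.08 and 1.83. For GACCTTA they were 5.06 and 0.625. For CACTGAG they were 4.89 and 2.48. For CTAGTTA they were 4.83 and 2.66. The ratios on the other arms rest on 1 to 5 members each, and all 5 were lower than on the arms that chose the words. Any of the 5 words was present in 58 members (11.01%), against 7.24% of near intergenic and 6.47% of deep intronic summits and 5.89% of all optimal summits, but this figure contains the members that chose the words.

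The word CAGTGCA, shown above, was picked after its values were seen. It was present in 31 members (5.88%) and 13 flanks, against 1.54% of eligible windows, 4.57% of near intergenic and 4.09% of deep intronic summits and 3.03% of all optimal summits. The ratio to eligible windows was 3.64 on 2L and 3L and 4.09 on the other arms. In the top lists it was present in 7.83%, 7.93% and 7.78% of far intergenic summits of replicates 1, 2 and 3, against 4.80%, 3.75% and 3.30% of near intergenic and 5.87%, 3.86% and 5.15% of deep intronic ones. The far intergenic values lay above both others in each replicate (exact p = 0.25). As the word was picked with its values seen, neither this order nor the ratios by arm are an independent check. The 31 members were spread over all 4 rank bins, at 5.13% to 6.61% of each. A match is a description of these windows and does not show that a protein binds the word.

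Most far intergenic summits were nearest to a gene not bound at its own promoter. Bound genes were nevertheless nearest to more members than their share of the eligible bases. Of the 527 summits, 100 (19.0%) were nearest to a protein-coding gene whose own TSS had an optimal summit no more than 500 bp away, a state of 30.2% of all protein-coding genes. Such genes are nearest to 9.40% of the eligible bases. In the replicates the share was 19.3%, 19.5% and 20.04% for far intergenic summits, against 27.4%, 27.0% and 28.0% for near intergenic and 35.0%, 32.4% and 32.0% for deep intronic ones, lower in 3 of 3 replicates against either class (exact p = 0.25). The base share of such genes in the sequence of those 2 classes was not taken, so this comparison does not allow for it. Within 500 bp of an annotated noncoding start lay 26 members (4.93%), 22 of them at genes of the ncRNA biotype, against 1.59% of the eligible bases and 4.45% of all optimal summits.

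The members were nearest to 298 different genes, 190 of them with 1 member each. CG43245 had 10, vvl and hng3 9 each, and Reg-2, CG15283, Tollo and corto 7 each. Of these 7 genes hng3 and Tollo were bound at their promoters. Reg-2 encodes a protein with daily changes in expression, Tollo a receptor of the Toll family and corto a chromatin protein that binds Polycomb and Trithorax group proteins.

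In the optimal list, genes of embryonic patterning and other transcription factors were nearest to more members than their share of the eligible sequence. For the Hox and proneural lists, and for the pair-rule genes that were matched, this did not hold in every replicate. Members are unevenly spread over the eligible sequence, whose 6.08 Mb beyond 40 kb from a TSS held 14 members. The base shares were not adjusted for distance or repeats and are not expected shares of members. Shares over all optimal summits are therefore given as well. A list of other developmental transcription factors was nearest to 42 members (7.97%) and to 2.74% of the eligible bases, and 23 of its genes had at least 1 member. In the top lists of the replicates the share was 8.11% ± 0.268 (SD, n = 3). Over all optimal summits it was 2.40%. The leading gene was chinmo. This list shares odd with the pair-rule list and eyg with the homeobox list, and slp2 is in both the gap and the pair-rule list. Members at such shared genes are counted in each list. A list of 75 homeobox genes outside the Hox complexes was nearest to 29 members (5.50%) and 2.79% of eligible bases, with 5.23% ± 0.182 in the replicates. Over all optimal summits the share was 1.09%. Of the 29 members, 9 were nearest to vvl. The strongest of the 29, 10515 bp downstream of the start of eyg, a Pax gene of eye development, had ranks of 839, 1073 and 1337.

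Signalling ligands and receptors were nearest to 12 members (2.28%), 0.916% of eligible bases and 1.21% of all optimal summits. In the replicates the share was 2.35% ± 0.323. The strongest of the 12 members lay 5251 bp upstream of ptc, the receptor of Hedgehog, with ranks of 904, 1112 and 886. The wg gene, which encodes the ligand Wingless, was nearest to 5 of the 12 members. Gap and maternal genes were nearest to 7 (1.33%), 0.503% of eligible bases and 0.230% of all optimal summits. The head gap gene ems led them, with 4 of the 7 and ranks of 2123, 1797 and 1375 for the strongest. The matched pair-rule genes were nearest to 6 (1.14%), 3 of them at odd, to 0.330% of bases and to 0.332% of all optimal summits. They were nearest to 0.201%, 0.967% and 1.36% of far intergenic summits in replicates 1, 2 and 3. The strongest member at a matched gene, 5829 bp upstream of opa, had ranks of 10886, 5237 and 3516. It lay outside the top list of replicate 1. The listed symbol h matched no gene, so that these values leave out the gene annotated as hry. That gene was nearest to 3 members, the strongest at rank 2493 of the optimal list, and 2 of the 3 were in every top list. The Hox genes were nearest to 3 (0.569%), 0.207% of bases and 0.268% of all optimal summits, with 0.602%, 0.580% and 0.195% in the replicates. All 3 lay nearest to Dfd, 24913 to 26932 bp downstream of its start. Of these 3, a pair of summits comes from overlapping peaks.

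Axon guidance and synaptic adhesion genes were nearest to 25 (4.74%), close to their 4.02% of eligible bases, and to 1.72% of all optimal summits. The replicates gave 4.31% ± 0.781, and Tollo led the list. Cytochrome P450 genes, of detoxification and hormone metabolism, were nearest to 6 (1.14%), to 0.622% of eligible bases and to 0.307% of all optimal summits. The replicates gave 1.11% ± 0.212. Of these 6, 4 were nearest to Cyp12e1 and lay in the stretch between it and hth. The P450 surplus over eligible bases thus rests largely on that stretch. The strongest P450 member lay nearest to Cyp12e1, which is also the nearest coding gene to the sites beside hth. The lists of ion channels and neurotransmission, chemosensory receptors, cuticle proteins and proneural bHLH factors had 1 member each, at GluRIIB, Gr93b, Cpr100A and Oli. Over all optimal summits their shares were 0.409%, 0.179%, 0.153% and 0.166%, in that order. Chemosensory receptors were nearest to 0.190% of members, against 1.27% of the eligible bases. The 93 genes of cytosolic and 73 of mitochondrial ribosomal proteins and the 47 seminal fluid protein genes had none, and a count of 0 allows a share of up to 0.569%. The ribosomal lists are nearest to 1.16% and 0.773% of eligible bases, and the seminal fluid list to 0.105%. Over all optimal summits their shares were 0.971%, 0.383% and 0.0511%. Genes known only by a CG number were nearest to 216 members (41.0%), against 42.7% of eligible bases and 28.5% of all optimal summits. No test was made of these lists, since they were chosen with earlier results known.

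**Figure D5:**
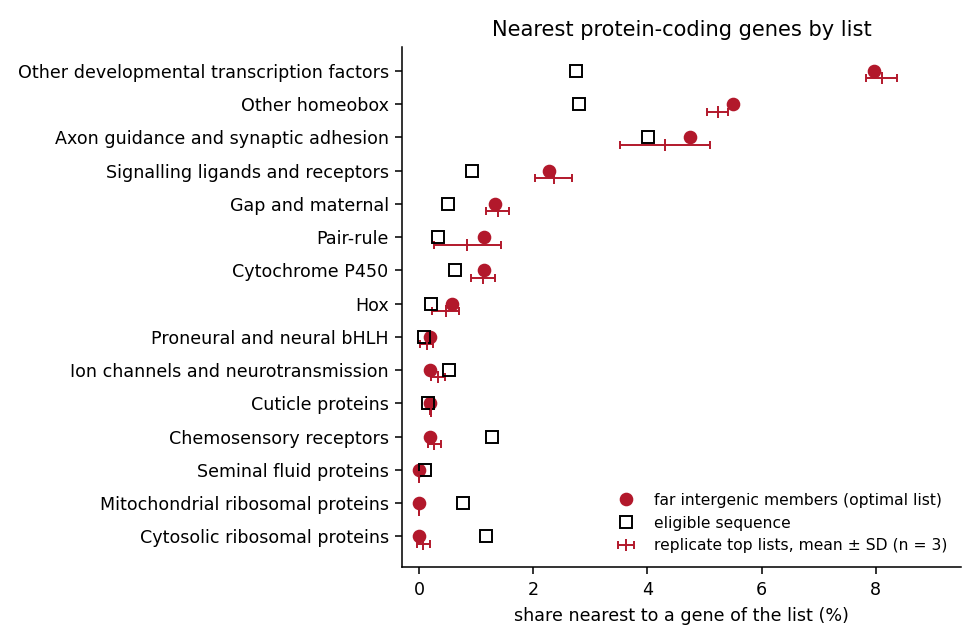
Share (x axis, %) of far intergenic members (filled circles), of far intergenic summits in the replicate top lists (ticks with whiskers, mean ± SD, n = 3) and of eligible bases (open squares) whose nearest protein-coding gene belongs to each list (y axis). Developmental transcription factors stand at 7.97% of members against 2.74% of eligible bases, and both ribosomal protein lists at 0 members.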

How the data were processed

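CG30403-eGFP ChIP-seq regions of 3 replicates (sonicated to 200 to 800 bp, per the labels) were used as deposited on build dm6. The signal value is a score deposited by the authors, of unstated scale. The deposited −log10 q value was constant (4.23) in the optimal list and not used. Column 10 holds the deposited summit offset. The sources used here do not name the aligner, peak caller or IDR threshold. Control data were not analysed here, and the dm3 lists were not used.

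Summits were classified with Ensembl release 115. RefSeq sequence of the same Release 6 assembly gave GC content and words. Lists were ranked by signal value, with top lists of 7827 regions and an overlap of at least 1 bp, and a member's replicate rank is that of the overlapping region with the nearest summit. Classes were compared within replicates by exact two-sided sign permutation. Shares have exact 95% binomial intervals, and a count of 0 was read as allowing up to 3. The members, gene lists and words were chosen with earlier results of these data known. Of 458 listed symbols 18 matched no gene. Among them were h and Dl, annotated as hry and Delta and nearest to 3 members and 1 member, which the list counts leave out. Named regions were the 12 strongest, the strongest per arm, the 5 farthest, those of the 5 fullest gaps, those at the threshold and the strongest of each gene list. Alternatives changed the distance, annotation, overlap, list length, window and replicates. Functions were checked on simulated data. Python 3.11.15, numpy 2.4.6, pandas 2.3.3 and scipy 1.17.1 were used.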

Additional observations from a re-analysis of the deposited data

How the results depend on the processing

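The 527 members were the same 527 with the RefSeq gene annotation, an alternative chosen after seeing the data. How far the 2 annotations share their gene models was not examined, so this is not an independent check of the members. The number of members was 707 at a minimum distance of 3000 bp, 286 at 10000 bp and 182 among the stronger 50% of optimal peaks. The share overlapped in every replicate, 64.5% as reported, was 49.5% with a reciprocal overlap of 50%, 54.6% with summits within 100 bp, 98.3% with full lists and 21.8% with the top 4000. It was 68.9% to 81.0% when 1 replicate was left out, and highest without replicate 1. The share of each replicate's list was 4.63%, 3.40% and 2.37% in the top 4000, 2000 and 1000, 8.82% at 3000 bp and 3.62% at 10000 bp. The GC difference from near intergenic summits was 0.332 points in windows of 100 bp on each side, against -0.33 as reported, and that from deep intronic summits was -0.166. Leaving out 1 replicate gave -0.248 to 0.743 points for that difference and -0.990 to 1.19 percentile points for rank against deep intronic sites, so that these small differences had no stable sign. Without transposon-rich megabases, also chosen after seeing the data, the density was 24.8 per Mb. All 6 leading motif words stayed more frequent at summits than in flanks in the 24 alternatives run. These words were chosen for that ratio in these members. The alternatives used other windows around the same summits or subsets of the same members, so this is not an independent check. The causes of these changes were not tested beyond what each setting alters. The series has 1 group, so that replicate numbers pair no samples across groups, and the paired tests compare classes of sites within each replicate. Depth is unknown, 3 replicates cannot give p under 0.25, and the replicate lists share most of their regions.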
